A study of Mus musculus with 10 samples.

Results

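The 38 genes described here are a hand-picked set of mouse cell cycle genes, listed by name when earlier results of these data were known. They comprise 19 genes of mitosis, 14 genes of the G1/S transition and DNA replication, the 3 D cyclins (Ccnd1, Ccnd2, Ccnd3) and 2 inhibitors of cyclin-dependent kinases (Cdkn1a, Cdkn1c). Of the 38, 37 had a probe set that reads a single gene, and all 37 passed the filter on dim genes, so they are 37 of 14696 genes tested. Ccnb1 was not analysed here. The mitotic class tested therefore holds 18 genes.

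A dividing cell copies its DNA in S phase and separates the copies in mitosis, and the genes for these steps are transcribed in turn. In G1, D cyclins with their kinases phosphorylate the retinoblastoma protein, which frees E2F transcription factors to switch on replication genes such as the Mcm helicase subunits. Later, complexes that hold B-MYB and FOXM1 switch on mitotic genes. Among these are the genes for cyclins B, the Aurora and Polo kinases and the ubiquitin ligase subunits that end mitosis. In a tissue, the summed RNA of such genes follows the share of its cells that are cycling, so these transcripts are widely read as a measure of proliferation.

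The RNA came from 10 samples of mouse embryos at 15 days post coitum and was hybridised to Affymetrix arrays of 45101 probe sets. ICR, an outbred stock, gave gallbladders of both genotypes (wild type and Sox17+/-) and, from wild type only, cystic duct, the duct through which the gallbladder fills and empties. C57BL/6 (B6), an inbred strain, gave gallbladders of both genotypes. Each of these 5 groups had 2 samples, described by the series as biological replicates. No treatment is labelled, and the groups differ by genotype, strain or organ. Sox17 encodes an endodermal transcription factor, and a Sox17+/- embryo has 1 unaltered copy of it. The sources used here do not give the allele, the embryos behind a sample or their litters, so p-values measure only the spread between these samples. Values are log2 signals after quantile normalization unless stated otherwise. Changes are differences of log2 means with a standard error (SE) from limma, with p-values adjusted by Benjamini-Hochberg over all 14696 genes and a threshold of 0.05. The number of arrays limits the precision.

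The promoters of the genes differ by class in their letters, and 7 are shown: 4 mitotic promoters with a CCAAT box and a CHR, 2 replication promoters with an E2F word, and that of Mcm7, which holds only CCAAT boxes in the bases shown. Each is the 150 bases before the transcription start in RefSeq (assembly GRCm38.p6), written 5′ to 3′ on the gene's own strand. Capitals mark the CCAAT box (CCAAT, or ATTGG on the other strand), the cell cycle homology region or CHR (TTTGAA, with TTCAAA for the other strand, or TTTAAA, which reads the same on both) and an E2F word on either strand, which is TTCCCGC or its variant TTGGCGC or the variants TTCGCGC and also TTGCCGC. The mitotic genes shown are Ube2c (chr2:164769779-164769928, plus strand), Cdc20 (chr4:118437344-118437493, minus strand), Top2a (chr11:99024190-99024339, minus strand) and Plk1 (chr7:122159285-122159434, plus strand). The replication genes shown are Mcm7 (chr5:138171884-138172033, minus strand), Mcm6 (chr1:128359706-128359855, minus strand) and Cdc6 (chr11:98908001-98908150, plus strand).
Ube2c: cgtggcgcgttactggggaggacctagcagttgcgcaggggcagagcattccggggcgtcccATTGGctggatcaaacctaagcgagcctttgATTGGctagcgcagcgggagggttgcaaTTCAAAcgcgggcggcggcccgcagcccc
Cdc20: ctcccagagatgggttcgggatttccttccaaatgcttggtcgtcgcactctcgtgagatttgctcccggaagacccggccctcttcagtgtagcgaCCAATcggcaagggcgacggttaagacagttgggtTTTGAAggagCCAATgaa
Top2a: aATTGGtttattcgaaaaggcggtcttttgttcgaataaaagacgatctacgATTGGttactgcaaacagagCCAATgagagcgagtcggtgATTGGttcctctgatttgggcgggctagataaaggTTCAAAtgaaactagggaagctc
Plk1: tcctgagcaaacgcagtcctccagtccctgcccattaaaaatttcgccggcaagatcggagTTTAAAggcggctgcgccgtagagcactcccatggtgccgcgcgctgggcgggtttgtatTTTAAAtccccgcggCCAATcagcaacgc
Mcm7: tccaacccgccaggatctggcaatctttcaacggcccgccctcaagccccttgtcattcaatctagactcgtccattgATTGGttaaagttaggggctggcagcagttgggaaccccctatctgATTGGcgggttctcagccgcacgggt
Mcm6: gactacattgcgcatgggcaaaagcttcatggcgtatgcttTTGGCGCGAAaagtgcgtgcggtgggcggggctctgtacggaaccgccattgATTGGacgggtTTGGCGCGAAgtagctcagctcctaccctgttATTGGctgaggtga
Cdc6: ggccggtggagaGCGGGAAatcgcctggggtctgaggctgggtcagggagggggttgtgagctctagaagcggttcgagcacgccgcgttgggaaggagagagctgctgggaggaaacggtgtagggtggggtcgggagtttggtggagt

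In Ube2c, Cdc20, Top2a and Plk1 a CCAAT box and a CHR stand together shortly before the start. The CHR lies at bases -29 to -24 in Ube2c, -18 to -13 in Cdc20, -23 to -18 in Top2a and -29 to -24 in Plk1, counted from the start. In Mcm6, 2 pairs of overlapping E2F words lie on opposite strands, from bases -109 to -100 and -46 to -37, each pair within 1 run of capitals. Mcm7 has its E2F words outside the bases shown, at -165 to -159 and after the start. Among genes not shown, Ccnb2 and Aurka hold no CHR in the 150 bases before the start, and Ccne1 and Mcm3 no E2F word. The promoters shown are therefore examples and no measure of their classes.

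RefSeq windows of 300 bases, 250 before and 50 after the start, were held for 30 of the 38 genes, and the window listed at the top was used for each. A CCAAT box was present in 14 of 16 mitotic windows (87.5%), 8 of 12 replication windows (66.7%) and 37.4% of all 32851 windows. A CHR of either kind was present in 14 of 16 mitotic windows (87.5%), 5 of 12 replication windows (41.7%) and 27.6% of all windows, and CCAAT box and CHR occurred together in 13 of the 16 (81.2%) against 10.7% of all windows. An E2F word was present in 3 of 16 mitotic windows (18.8%), 6 of 12 replication windows and 9.57% of all windows. Among the 11766 genes tested on the arrays that have a window, the shares were 38.1% for the CCAAT box, 19.4% for a CHR, 7.67% for both and 15.8% for an E2F word. So the CHR, alone or with a CCAAT box, was the word more frequent in mitotic windows, and the E2F word in replication windows. A match is a description of letters and was not tested as a binding site.

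Before the cell cycle genes, the samples themselves were compared. Sox17 checked the genotype labels: its log2 signal was 9.52 and 9.24 in ICR wild type gallbladder, 7.65 and 7.90 in ICR Sox17+/-, 9.29 and 9.04 in B6 wild type and 8.03 and 7.91 in B6 Sox17+/-, so no Sox17+/- gallbladder reached a wild type one. Replicates of the gallbladder groups correlated over genes at r = 0.967 to 0.996, but the cystic duct pair reached only 0.898, with 3565 genes more than 1 log2 unit apart. The duct results are therefore given with and without each duct sample. As deposited, the interquartile range of duct sample 2 was 2.75 log2, against 3.46 to 3.84 in the other samples. Quantile normalization gives all samples the same distribution, and the part of this in the duct results was not tested. The control probe sets of Gapdh and beta-actin were read as deposited, without quantile normalization. Gapdh probe sets at the 3′ and 5′ ends, which track RNA integrity, differed by 0.43 to 0.93 log2 in the ICR gallbladders, 0.00 to 0.30 in the B6 ones and 0.31 to 0.92 in duct. Those of beta-actin differed by 0.56 to 1.40, 0.92 to 1.20 and 1.03 to 1.19. The 10 biliary epithelium markers read here (keratins, Epcam, Sox9 and others) summed to 11104 to 17600 signal units in gallbladder and 12703 to 13016 in duct. Hepatocyte and erythroid markers were present in every sample and are given beside the results they move with. In such bulk samples, fewer cells of a type and less RNA per cell cannot be told apart.

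**Figure D1:**
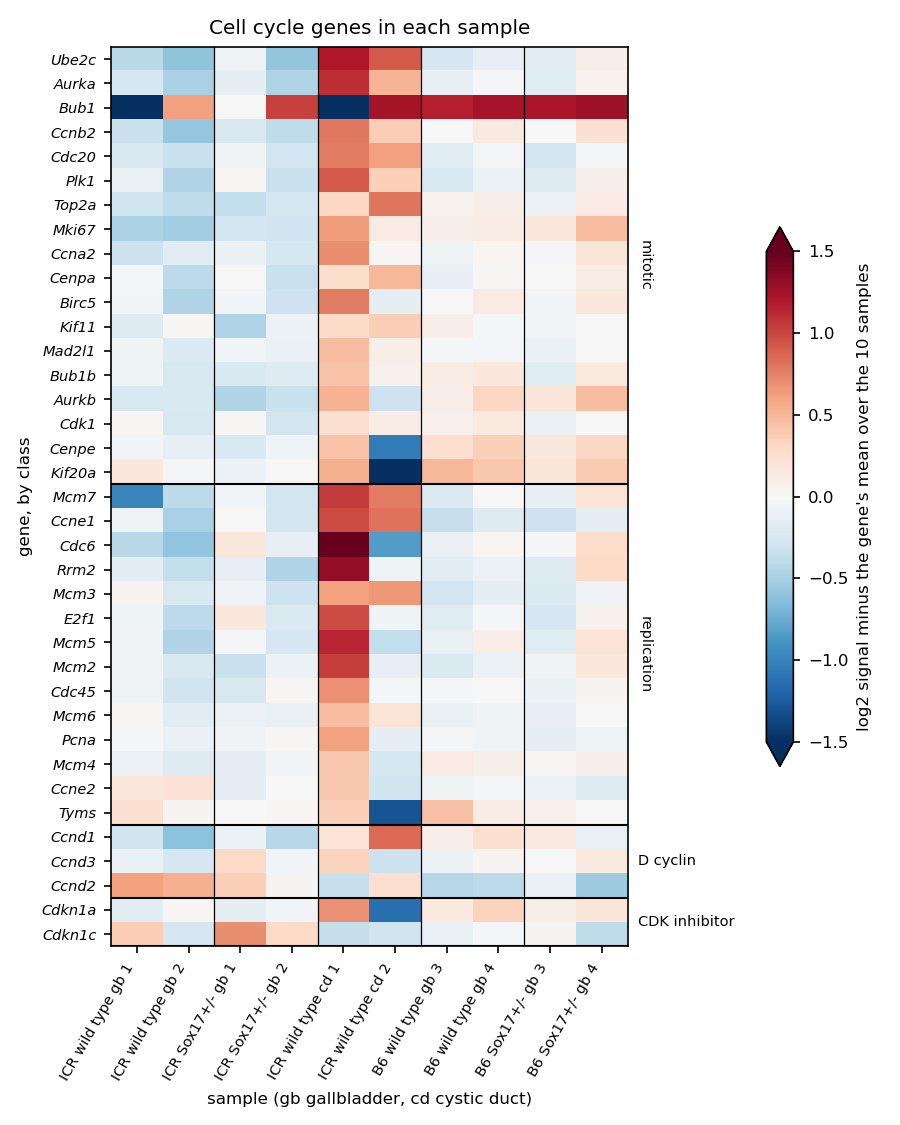
Heat map of the 37 cell cycle genes (rows, grouped by class) in the 10 samples (columns); colour is the log2 signal minus the gene's mean over the 10 samples, limited to 1.5 either way. Cystic duct sample 1 is red in nearly all rows, duct sample 2 in the upper mitotic rows, and the gallbladder groups are pale; Bub1 jumps between samples of the same group.

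In Sox17+/- gallbladder no cell cycle gene passed the threshold against wild type. By limma, 0 of 37 passed over both strains, in ICR, in B6 or in the difference between the strains' genotype effects. The background was as low: 0.0544% of all genes passed over both strains, 0.0068% in ICR, 0.0068% in B6 and 0% for the difference. At an unadjusted p under 0.05 the counts were 0 of 37 over both strains (3.55% of all genes), 1 in ICR (5.28%), 0 in B6 (1.31%) and 0 for the difference (1.03%). The median change over both strains was 0.04 for the mitotic genes and 0.05 for the replication genes, against -0.00 for all genes tested. No gene had all 4 Sox17+/- gallbladders above or below all 4 wild type ones, which 1.91% of all genes did upward and 2.96% downward. Within ICR alone, 4 genes had both Sox17+/- samples above both wild type ones (17.9% of all genes) and 4 had them below (21.1%). Taken by same-numbered pair, 10 genes were at a greater value in the Sox17+/- sample in all 4 pairs (11.4% of all genes), among them Mki67, Mcm7, Ube2c, Ccnb2, Plk1 and Ccnd3. A further 3 were at a smaller value in all 4 (11.6% of all genes): Cdk1, Ccne2 and Tyms. The pairs rest on the sample numbers alone, and with them as a block 0 of 37 passed by limma. Marker lists of other cells differed in direction, with 0 called. In ICR, 13 of 14 hepatocyte changes were above 0 (median 1.43), and in B6 10 of 14 (median 0.17). The ICR sums were 55967 to 69985 in Sox17+/- and 29512 to 37986 in wild type gallbladder. Over both strains, 11 of 11 erythroid changes were above 0 (median 0.88), as were 11 of 12 skeletal muscle changes. So were 6 of 10 biliary epithelium, 6 of 7 mesothelium, 7 of 10 endothelium and 4 of 4 enteric neural changes. Fewer were above 0 among smooth muscle (3 of 9), fibroblast (4 of 10) and leukocyte markers (5 of 12). The skeletal muscle sum was 6280 in B6 Sox17+/- sample 3 and 577 to 1051 in the other gallbladders, so 1 sample carried most of that signal. The part of these marker lists in the values above was not tested.

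The gene with the smallest p for genotype was Mcm7, a subunit of the replicative helicase. Its signal was 10.73 and 11.31 in ICR wild type against 11.67 and 11.43 in ICR Sox17+/- gallbladder, and 11.49 and 11.70 in B6 wild type against 11.59 and 11.91 in B6 Sox17+/-. The groups were apart in ICR and overlapped in B6, and much of the ICR gap came from the low value of wild type sample 1. The change was 0.53 (SE 0.22) in ICR, with an unadjusted p of 0.0407 and an adjusted p of 0.945 by limma, and 0.34 (SE 0.15) over both strains. Mki67, whose protein Ki-67 coats mitotic chromosomes and is the standard marker of cycling cells, stood at 11.02 and 10.97 in ICR wild type and 11.21 and 11.19 in ICR Sox17+/- gallbladder. In B6 it stood at 11.58 and 11.60 in wild type and 11.66 and 11.96 in Sox17+/-. Within each strain the Sox17+/- pair lay above the wild type pair, by 0.21 over both strains (SE 0.12, 95% interval -0.07 to 0.50, adjusted p = 1.0 by limma). Ube2c, the ubiquitin-conjugating enzyme that serves the anaphase-promoting complex, had a change of 0.16 (95% interval -0.16 to 0.48), and Ccne2, a cyclin E, one of -0.18 (-0.53 to 0.17). In B6 alone the next smallest p after Mki67 in the mitotic class was that of Cdk1, at -0.16 (SE 0.14), and after Mcm7 in the replication class that of Mcm2, a helicase subunit, at 0.20 (SE 0.32). The difference of genotype effects, B6 minus ICR, was -2.52 (SE 2.46) for Bub1, a spindle checkpoint kinase whose ICR wild type pair read 3.70 and 9.04, and -0.16 (SE 0.21) for Cdc20. It was -0.38 (SE 0.31) for Mcm7 and 0.17 (SE 0.21) for Mcm3, and none of these 4 passed. The intervals given bound the genotype effect of their genes and do not show that it is 0. None of the 37 genes had opposite genotype effects, without overlap, in the strains, as 6.14% of all genes did.

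Of the regulators of G1, 0 of 5 passed for genotype. Ccnd2 read 11.55 and 11.46 in ICR wild type against 11.29 and 10.98 in ICR Sox17+/- gallbladder, but 10.51 and 10.55 against 10.83 and 10.40 in B6. So the ICR pairs were apart and the B6 pairs overlapped, with changes of -0.38 (SE 0.22) and 0.09 (SE 0.22). Ccnd1 had a change of 0.02 (SE 0.17) and Ccnd3 by 0.20 (SE 0.15) over both strains. The ICR pairs of Ccnd3 were apart, at 10.59 and 10.43 in wild type and 10.97 and 10.65 in Sox17+/-. Cdkn1c, which encodes the inhibitor p57, read 13.43 and 12.80 in ICR wild type and 13.74 and 13.35 in ICR Sox17+/-, which overlap, with a change of 0.43 (SE 0.23). Cdkn1a, which encodes the inhibitor p21 and is a target of p53, changed by -0.07 (SE 0.34) over both strains. Of the other genes of the pathway, 0 of 43 further replication genes, 0 of 58 further mitotic genes, 0 of 21 further G1 and pocket protein genes and 0 of 15 p53 targets passed for genotype over both strains. The smallest p among the p53 targets was that of Plk2, a Polo-like kinase, at 0.40 (adjusted p = 0.75 by limma).

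In cystic duct, 11 of 37 cell cycle genes were higher than in gallbladder of ICR wild type and 0 were lower. That is 29.7% of the set, against 5.73% of all genes called higher and 8.61% called lower. Those called comprised 7 of 18 mitotic genes, 3 of 14 replication genes, 1 of 3 D cyclins and 0 of 2 inhibitors. The median change was 0.60 for the mitotic and 0.62 for the replication genes, against -0.03 for all genes, and 30 of 37 changes were above 0. Both duct samples lay above both gallbladder samples for 20 of the 37 genes (54.1%; 21.7% of all genes) and below them for 2 (27.6% of all genes). The all-gene split depends on scaling: 842 genes were called higher and 1265 lower here, 287 and 1603 with the values as deposited, and 391 and 1082 with each sample centred on its median. Of the 11 genes, 3 still passed with the values as deposited (Ube2c, Top2a and Mcm7) and 4 with centring (these and Ccnd1). Aurka, Ccnb2, Cdc20, Plk1, Mki67, Ccne1 and Mcm3 lost their call under both scalings.

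Among the mitotic genes the change was largest in Ube2c. Its signal was 11.18 and 10.98 in ICR wild type gallbladder and 12.78 and 12.50 in cystic duct. It was 2.96-fold higher in duct (log2 change 1.56, SE 0.19, adjusted p = 0.00336 by limma). Cdc20, the activator of the same ligase, read 9.47 and 9.38 in gallbladder and 10.48 and 10.33 in duct. The pairs did not overlap, and Cdc20 was 1.97-fold higher in duct (log2 change 0.98, SE 0.15, adjusted p = 0.00657). Ccnb2, a cyclin B that drives entry into mitosis, read 9.73 and 9.48 in gallbladder and 10.85 and 10.44 in duct. This put it 2.06-fold higher in duct (log2 change 1.04, SE 0.18, adjusted p = 0.00924).

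The kinases of mitosis divided into those that passed and those that did not. Aurka, the Aurora kinase of the spindle poles, read 8.46 and 8.24 in gallbladder and 9.84 and 9.24 in duct. It was 2.28-fold higher in duct (log2 change 1.19, SE 0.23, adjusted p = 0.0144 by limma). Plk1, the Polo kinase, read 8.39 and 8.05 in gallbladder and 9.42 and 8.86 in duct, a 1.90-fold rise (log2 change 0.92, SE 0.24, adjusted p = 0.0407). Its call was lost in most of the alternative settings described at the end. Aurkb, the Aurora kinase of the chromosomal passenger complex, read 7.91 and 7.93 in gallbladder and 8.67 and 7.84 in duct. Only duct sample 1 was above the gallbladders, and Aurkb did not pass (log2 change 0.33, SE 0.27, adjusted p = 0.413). Cdk1, the kinase that cyclins A and B activate, had a change of 0.29 (SE 0.14), also without passing.

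Top2a and Mki67 are chromosome proteins of cycling cells. Top2a, the topoisomerase that disentangles sister chromatids, read 11.00 and 10.92 in gallbladder and 11.61 and 12.10 in duct. It is the called mitotic gene with the higher value in duct sample 2, and it was 1.85-fold higher in duct (log2 change 0.89, SE 0.17, adjusted p = 0.0133 by limma). Mki67 read 11.02 and 10.97 in gallbladder and 12.12 and 11.61 in duct. Both duct samples were well above, a 1.83-fold rise (log2 change 0.87, SE 0.18, adjusted p = 0.0168). The other 11 mitotic genes ran from -0.81 for Kif20a, a kinesin of cytokinesis, to 1.16 for Bub1, and none passed. Bub1 rests on signals of 3.70 and 9.04 in gallbladder and 5.38 and 9.66 in duct, so its replicates lie further apart than its groups.

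Of the replication genes, Mcm7, Ccne1 and Mcm3 were higher in duct. Mcm7 had 10.73 and 11.31 in gallbladder and 12.76 and 12.48 in duct. It was 3.03-fold higher (log2 change 1.60, SE 0.22, adjusted p = 0.00463 by limma), the largest change of the 37 genes. Ccne1, the cyclin E that starts S phase with its kinase, read 8.15 and 7.71 in gallbladder and 9.17 and 9.01 in duct. The pairs were apart, and Ccne1 was 2.24-fold higher (log2 change 1.16, SE 0.20, adjusted p = 0.0102). Mcm3, another helicase subunit, read 10.38 and 10.11 in gallbladder and 10.93 and 10.99 in duct, a 1.64-fold rise (log2 change 0.72, SE 0.15, adjusted p = 0.0183). The subunits of the same helicase did not all pass: Mcm6 changed by 0.41 (SE 0.12), Mcm5 by 0.64 (SE 0.43), Mcm2 by 0.59 (SE 0.32) and Mcm4 by 0.21 (SE 0.20). Cdc6, which loads the helicase onto DNA, read 7.73 and 7.55 in gallbladder but 9.78 and 7.31 in duct, so the duct samples lie on either side of the gallbladders.

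**Figure D2:**
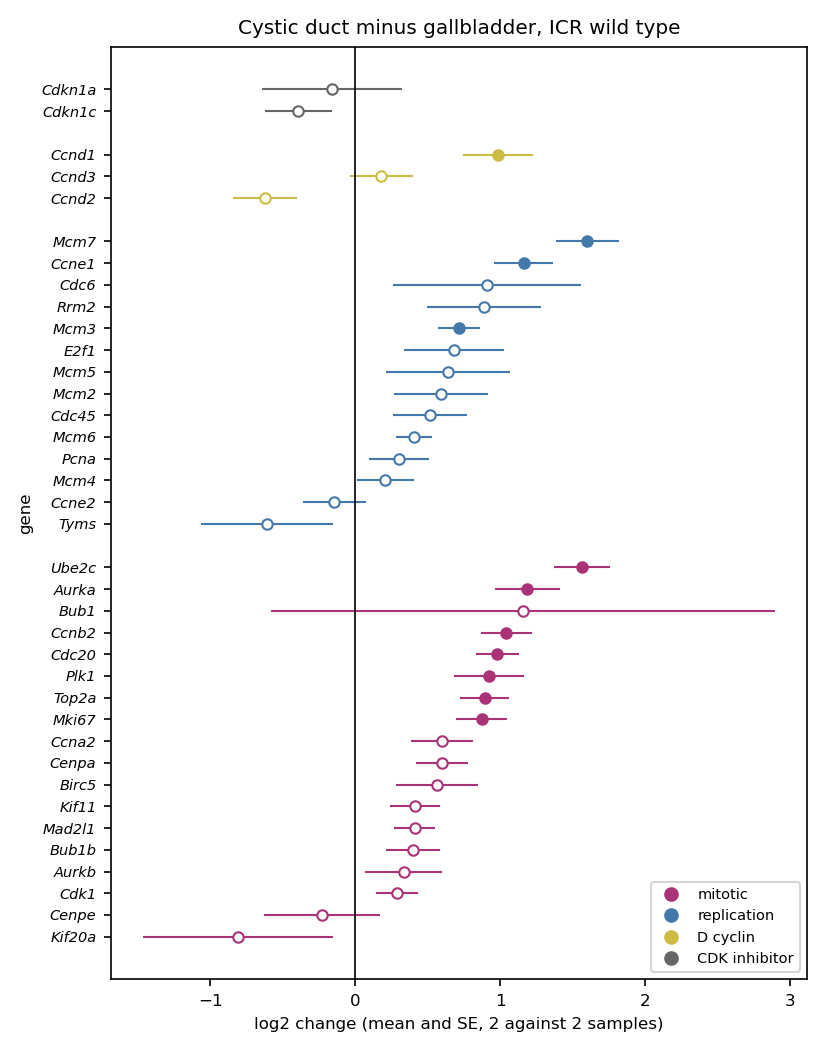
Log2 change of each of the 37 genes between cystic duct and gallbladder of ICR wild type (x axis; points are differences of means over 2 against 2 samples, bars 1 SE), grouped by class; filled points passed an adjusted p of 0.05 by limma. The 11 filled points lie between 0.72 (Mcm3) and 1.60 (Mcm7), and Bub1 has the longest bar.

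The regulators of G1 did not move as a group. Ccnd1 was the D cyclin that passed: it read 8.85 and 8.53 in gallbladder and 9.35 and 10.00 in duct, 1.97-fold higher (log2 change 0.98, SE 0.24, adjusted p = 0.0334 by limma). The replicate block ended this call (adjusted p = 0.0778), as did the values as deposited (0.116) and most of the other alternative settings described at the end. Ccnd2 had the opposite sign, with 11.55 and 11.46 in gallbladder and 10.59 and 11.19 in duct (log2 change -0.62, SE 0.22, adjusted p = 0.101). It passed as lower with the values as deposited (-0.98, adjusted p = 0.0163) and with centring (-0.88, adjusted p = 0.034). Ccnd3 read 10.59 and 10.43 in gallbladder and 11.02 and 10.36 in duct, which overlap. Cdkn1c read 13.43 and 12.80 in gallbladder and 12.70 and 12.74 in duct (log2 change -0.39, SE 0.23), and did not pass. Cdkn1a read 7.77 and 7.94 in gallbladder and 8.60 and 6.79 in duct. Its duct samples lay above and below the gallbladders, so its change turned to 0.75 without duct sample 2 and to -1.06 without duct sample 1.

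The duct samples differed from each other most in the replication genes. Duct sample 1 lay above both ICR wild type gallbladders in 34 of 37 genes, with 17 of 18 mitotic and 14 of 14 replication genes. Duct sample 2 lay above them in 21 of 37, with 14 of 18 mitotic and 6 of 14 replication genes, and below both in 12. Over all genes, 38.8% lay above both gallbladders in duct sample 1 and 41.5% in duct sample 2, while 43.6% and 46.8% lay below both. The 6 of 14 replication genes above in duct sample 2 are near the share of all genes. The median of duct sample 1 minus duct sample 2 was 0.40 for the mitotic and 0.73 for the replication genes, against 0.03 for all genes. The largest gaps were in Kif20a (9.01 against 6.46), Cdc6 (9.78 against 7.31) and, with the opposite sign, Bub1 (5.38 against 9.66).

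All 11 genes that passed in duct kept a change above 0 without duct sample 1 and again without duct sample 2. With 1 duct sample left, the duct pair adds nothing to the estimate of spread, so passing again cannot show that a call holds. The balance of the classes rests more on the pair. Without duct sample 1, the median change was 0.53 for the mitotic and 0.09 for the replication genes. Without duct sample 2, these medians were 0.70 and 1.02. The mitotic median minus the replication median was therefore -0.02 with both duct samples, 0.45 without duct sample 1 and -0.32 without duct sample 2, so which class led depended on the sample. Leaving out ICR wild type gallbladder sample 1 gave medians of 0.65 and 0.76, and leaving out sample 2 gave 0.59 and 0.47. With only the 4 compared samples in the fit, 0 of 37 and 0 of all genes passed.

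The markers of other cells moved in the same comparison. Of 14 hepatocyte markers 13 were called higher in duct (median log2 change 3.46), with summed signals of 137251 to 182641 in duct and 29512 to 37986 in ICR wild type gallbladder. Of 11 erythroid markers 10 were called higher (median 3.20), with sums of 13975 to 35988 against 1689 to 4054, and the higher sum was that of duct sample 1. Of 9 smooth muscle markers 6 were called lower (median -1.77), and their sums over 10 genes were 6311 to 10633 in duct and 26754 to 28205 in gallbladder. An array signal has no true zero, so no marker was listed at 0. Their part in the change of the cell cycle genes was not tested.

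Genes of the same steps outside the set were called in duct as well, to be read against the 5.73% of all genes called higher and the 8.61% called lower. Of 43 further replication genes 10 were called higher and 1 lower, and the median change was 0.43. Dut, which removes dUTP from the nucleotide pool, was 0.97 higher on the log2 scale (SE 0.12, adjusted p = 0.00392 by limma), and Mcm10, an initiation factor, 1.18 higher (SE 0.17, adjusted p = 0.00539). Rfc1, the large subunit of the clamp loader, fell by 0.55. Of 58 further mitotic genes 13 were called higher and 0 lower, with a median of 0.42. Dlgap5, a spindle protein, was 1.29 higher (SE 0.19, adjusted p = 0.00561) and Nusap1, another, 0.83 higher (SE 0.12, adjusted p = 0.0057). Of 21 further G1 and pocket protein genes 1 was higher, Tfdp2 (0.81), the partner of E2F proteins, and 2 were lower, Cdkn1b (-0.61), which encodes the inhibitor p27, and E2f5 (-0.62), a repressive E2F; these counts are near the background. Of 15 p53 targets 0 passed by limma, where 6 had an unadjusted p under 0.05 (31.7% of all genes), among them Btg2 (0.61) and Ccng1 (-0.73).

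**Figure D3:**
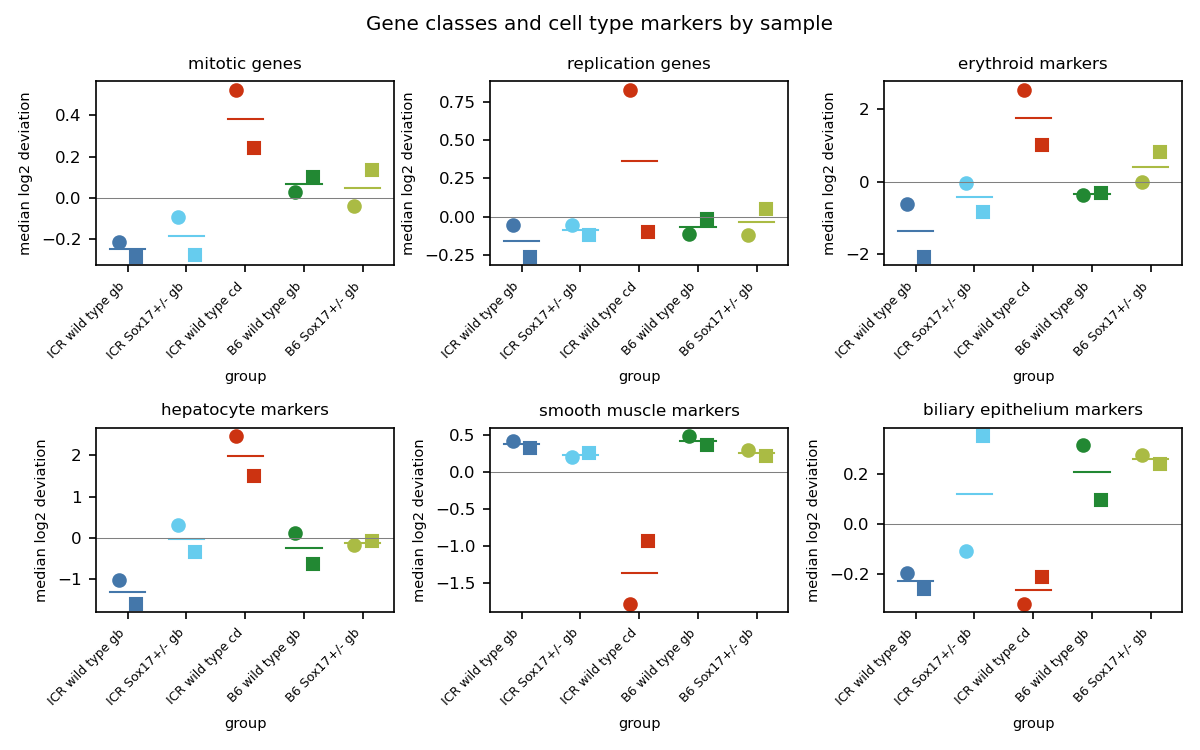
Median log2 deviation from each gene's mean over the 10 samples (y axis, own scale per panel) for the mitotic genes, the replication genes and 4 marker lists; points are samples (circle for the lower replicate number, square for the higher) and lines group means over 2. The mitotic index is 0.52 and 0.24 in the duct samples, the replication index 0.83 and -0.10, and the erythroid and hepatocyte markers are highest and the smooth muscle markers lowest in the same pair.

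Between the strains, B6 and ICR gallbladder differed in the same direction for every mitotic gene on the probe sets read here, mostly by small amounts. Above the filter, Cenpe, Top2a and Kif11 each had another probe set of the opposite sign. All 18 mitotic changes (B6 minus ICR over both genotypes) were above 0, with a median of 0.27, and 10 of 14 replication changes were, with a median of 0.10. Over all genes, 60.4% of changes were above 0, with a median of 0.05. In the fit of all samples 0 of 37 passed in either direction by limma, where 0.408% of all genes were called higher in B6 and 0.939% lower. At an unadjusted p under 0.05 there were 6 genes above 0 (7.49% of all genes) and 2 below (5.25%). All 4 B6 samples lay above all 4 ICR samples for 10 genes, 8 of them mitotic, and below them for 1, Ccnd2. That is 27.0% of the set upward, against 12.5% of all genes upward and 6.84% downward. With the values as deposited the medians were 0.20 for the mitotic and -0.00 for the replication genes, and with centring 0.39 and 0.19, so the sign of the replication median depends on the scaling and that of the mitotic median does not.

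The duct pair enters the shared estimate of spread in that fit and has the widest spread of the 5 pairs. With the 8 gallbladder samples alone, 6 mitotic genes were called higher in B6 and Ccnd2 lower, which is 7 of 37 where 4.78% of all genes were called higher and 4.14% lower. Mki67 stood at 10.97 to 11.21 in the 4 ICR samples and at 11.58 to 11.96 in the 4 B6 samples. The strains were well apart, by 0.60 (SE 0.07, adjusted p = 0.00627 by limma over the 8 samples; 0.0648 in the fit of all samples). Aurkb stood at 7.70 to 7.93 in ICR and 8.25 to 8.62 in B6, a difference of 0.57 (SE 0.10, adjusted p = 0.0159; 0.237 with all samples). Ccnb2 stood at 9.48 to 9.83 in ICR and 10.06 to 10.29 in B6 (0.48, adjusted p = 0.0231; 0.129 with all samples). Top2a differed by 0.37 (adjusted p = 0.0201, and 0.218 with all samples), and Kif20a by 0.36 (adjusted p = 0.0454, and 0.873 with all samples). Another Top2a probe set above the filter read -0.36, the opposite sign. Cenpe, a kinesin of the centromere, differed by 0.38 (adjusted p = 0.0314, and 0.67 with all samples), but another of its probe sets goes the other way, as described further on. Of the replication genes 0 of 14 passed over the 8 samples, and the smallest p was that of Mcm4, at 0.19 (SE 0.06, adjusted p = 0.086). The difference between the classes was not tested.

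Of the D cyclins, Ccnd2 was lower in B6 over the 8 samples. It read 11.55, 11.46, 11.29 and 10.98 in the ICR gallbladders and 10.51, 10.55, 10.83 and 10.40 in the B6 ones. Every B6 sample lay below every ICR one, with a difference of -0.75 (SE 0.11, adjusted p = 0.0109 over the 8 samples; 0.0673 with all samples, by limma). Ccnd1 read 8.85, 8.53, 9.07 and 8.73 in ICR and 9.25, 9.39, 9.29 and 9.04 in B6, which overlap narrowly, with a difference of 0.45 (SE 0.12, adjusted p = 0.0614 over the 8 samples). Cdkn1c differed by -0.39 and Cdkn1a by 0.27, and neither passed. Outside the set, Cdkn1b read 9.10, 9.21, 8.93 and 8.99 in ICR and 9.86, 9.87, 9.80 and 9.91 in B6. It was higher in B6 by 0.80 in the fit of all samples (SE 0.09, adjusted p = 0.00881). Cdca2, a phosphatase-targeting protein of mitotic chromatin, was lower in B6 by -1.70 (adjusted p = 0.00881), against the direction of the mitotic genes of the set. Of the 58 further mitotic genes it comes from, 50 had changes above 0 (median 0.18). Of 43 further replication genes, 35 did (median 0.13). Marker lists and the Gapdh sign of RNA quality differed by strain too. Of 12 leukocyte markers 2 were called higher in B6, Lyz2 and Cd52, and 12 of 12 changes were above 0 (median 0.35). So were 9 of 10 biliary epithelium changes (median 0.31), 12 of 14 hepatocyte changes (median 0.42) and 11 of 11 erythroid changes (median 1.01), with 0 called in these 3 lists. As deposited, the Gapdh 3′ minus 5′ difference was 0.60, 0.93, 0.43 and 0.60 in the ICR gallbladders and 0.00, 0.16, 0.21 and 0.30 in the B6 ones, which do not overlap. For beta-actin it was 0.56, 1.40, 0.86 and 1.05 in ICR and 0.92, 1.05, 1.06 and 1.20 in B6, which overlap. The part of these in the strain difference was not tested.

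**Figure D4:**
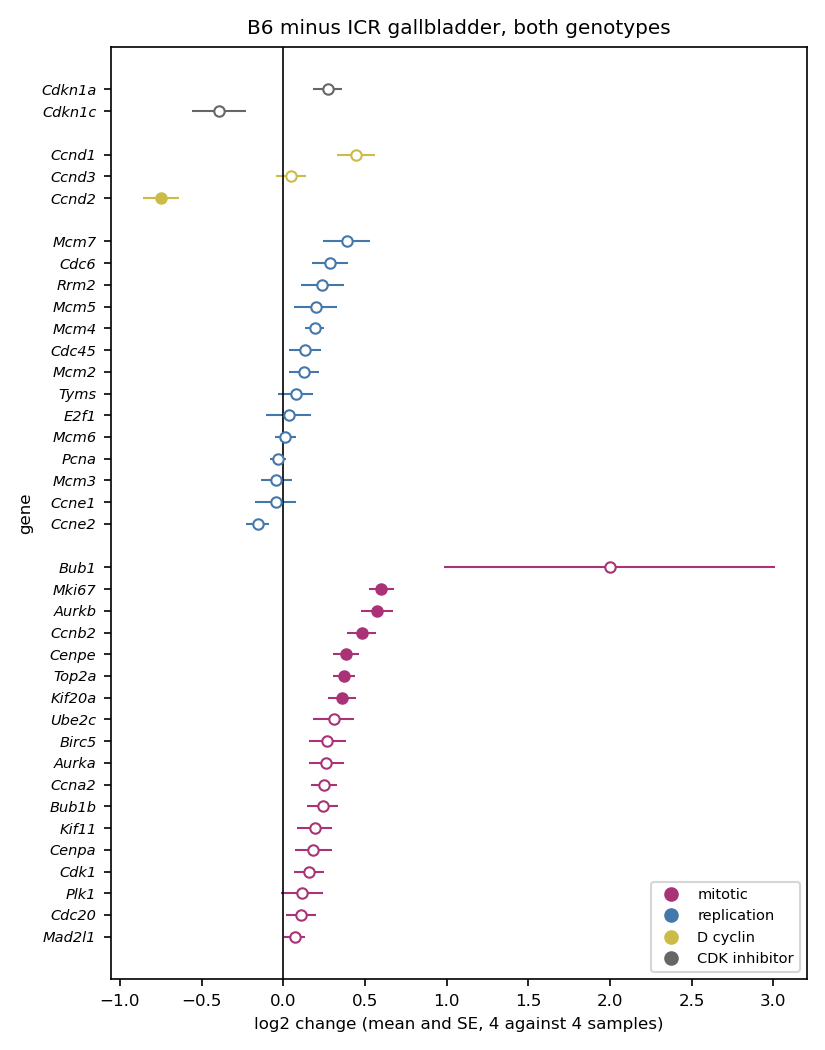
Log2 change of each of the 37 genes between B6 and ICR gallbladder over both genotypes (x axis; points are differences of means over 4 against 4 samples, bars 1 SE from the fit of the 8 gallbladder samples), grouped by class; filled points passed an adjusted p of 0.05 by limma in that fit. All 18 mitotic points lie right of 0, from 0.07 (Mad2l1) to 2.00 (Bub1), while the replication points run from -0.16 (Ccne2) to 0.39 (Mcm7).

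Other probe sets of the same gene qualify some of these values. Of the 37 genes 23 had another probe set above the filter, 40 in all. For cystic duct against gallbladder 4 of the 40 had the opposite sign to the probe set read here, 1 of them by over 0.5 log2, in Cdkn1a (0.64 against -0.16). For the strains 14 of the 40 did, and 4 of these changed by over 0.5 log2, in Ccnd1, Cdkn1a, Cenpe and Mcm3. Opposite signs were thus fewer for duct than for strain, a difference that was not tested. Cenpe is the clearest case: its other probe set read 7.64, 7.89, 7.53 and 7.41 in the ICR gallbladders and 3.93, 3.93, 5.25 and 3.29 in the B6 ones, a change of -3.52 against 0.38. For Ccnd1, another probe set read 7.83 to 8.62 in ICR and 5.96 to 6.71 in B6, a change of -1.85 against 0.45. The strain difference of Cenpe, Ccnd1 and Cdkn1a therefore has no single direction on these arrays. Of the Ccnd2 probe sets, 5 of the 6 others had the same sign as the one read here, from -0.07 to -1.47, and the remaining one was at 0.00. The probe set read here for Bub1 fell to 3.70 in ICR wild type gallbladder sample 1 and 5.38 in duct sample 1, where its other probe set stood at 4.67 and 4.60. For Bub1 the 4 B6 samples lay above the ICR gallbladders on both probe sets (2.00 and 1.92), without passing by limma on the one read here. The 2.00 rests largely on the 3.70 of ICR wild type gallbladder sample 1. On that probe set the other ICR gallbladders read 8.41 to 9.44 and the B6 ones 9.59 to 9.69, so the sizes are not comparable. A sequence difference between strains under a probe was not tested.

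**Figure D5:**
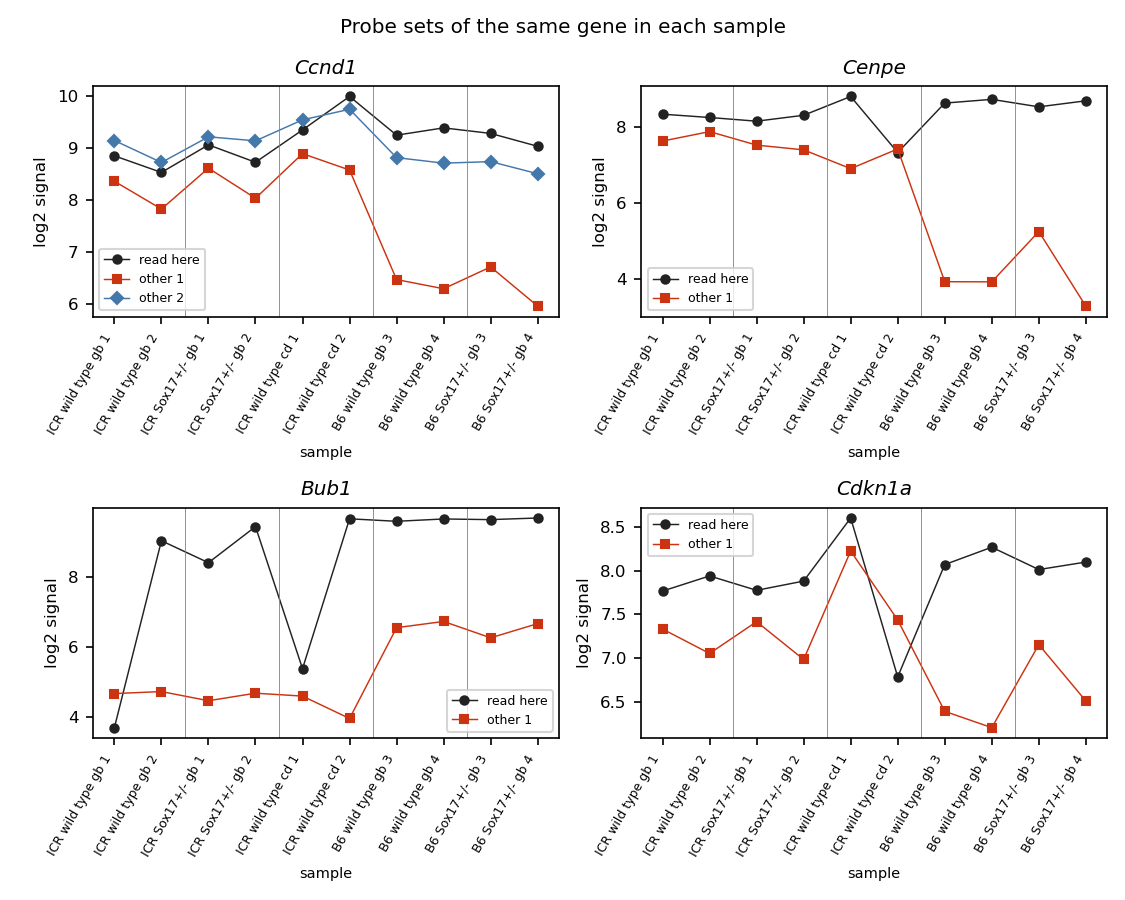
Log2 signal (y axis) of each probe set above the filter in the 10 samples (x axis) for Ccnd1, Cenpe, Bub1 and Cdkn1a; black circles are the probe set read here and other symbols the gene's other probe sets, whose levels are not to be compared with each other. In Cenpe the other probe set falls from 7.41 or more in the ICR gallbladders to 5.25 or less in the B6 ones while the one read here does not.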

How the data were processed

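The authors deposited 1 log2 signal for each probe set and sample, as the values and labels show; the sources used here do not give the background and normalization methods. RNA was extracted with Trizol, per the labels' protocols. In the records the tags naming stage and genotype are interchanged, and groups were read from titles and values. Of 45101 probe sets, 64 are controls, 34945 map to 1 gene, 932 to several and 9160 to none in the platform table; Entrez identifiers of 34741 matched the reference gene table (GRCm38.p6), leaving 204 unmatched. The 18193 genes were each read by the brightest single-gene probe set, with names in _x_at taken last. Samples were quantile normalized, and genes whose mean fell below the 30th percentile (4.47) left out. Means of the 5 groups were fitted to all 10 samples in limma 3.58.1 (R 4.3.3) with trended empirical Bayes variances (5 residual and 7.95 total degrees of freedom). Columns of other samples used: 0.

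The members and lists were chosen with earlier results of these data known. Named in full were genes that passed, the smallest p per class and comparison, the D cyclins and the inhibitors; Kif20a, Cdc6, Bub1, Cenpe, the Mcm subunits and Aurkb were also named after their values were seen. Same-numbered wild type and Sox17+/- gallbladders deviated together (r = 0.377 in ICR, 0.217 in B6), so the numbers may pair them, while no label says so. The fitting steps were tested on simulated data. Figures were drawn with matplotlib 3.10.9.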

Additional observations from a re-analysis of the deposited data

How the results depend on the processing

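Each result was recomputed with values as deposited, with centring on medians, without a filter or with one at the 50th percentile, with each gene's probe sets averaged, without a variance trend, with array weights, with only the compared groups, with the replicate block and without each sample. For genotype, 0 of 37 genes passed under every one of these. With the replicate number as a block (the replicate block) 0 passed for genotype and for strain and 10 for duct. Duct and gallbladder samples share only a number (r = 0.075 and 0.087). For cystic duct against gallbladder, 11 genes passed; the count was 4 as deposited and 5 with centring (3 and 4 of the 11, plus Ccnd2 as lower), 7 with the mean of probe sets, 0 with array weights, 0 with only the compared groups and 5 to 29 when leaving out 1 sample. It was 7 and 5 without wild type gallbladder sample 1 and 2, and 17 and 29 without duct sample 1 and 2. Each of the 11 stayed above 0 in all 19 alternatives. These changes moved only with the scaling, the averaging of probe sets or a compared sample left out. The other settings left them as they were, so the sign there carries no information. The mitotic minus replication median ran from -0.32 to 0.45 when leaving out 1 sample. For strain, 0 passed; the count was 1 as deposited, 3 with the mean of probe sets, 6 with array weights, 7 with only the compared groups and 0 to 7 when leaving out 1 sample, with 7 without either duct sample. In duct, Cdkn1a was at 0.75 without duct sample 2 and at -1.06 without duct sample 1. Over 60 values for named genes, 1140 alternatives gave 1027 on the same side of the threshold with the same sign, 64 that lost a call, 20 that gained one, 28 that changed sign or size without a call and 1 reversal. The causes were not tested. Many of the 1140 could not change the size of the effect, so the 1027 is no measure of stability. As deposited, all genes shifted by a median of -0.27 in duct, and with centring by -0.16; the mitotic and replication medians were then 0.22 and 0.26, and 0.33 and 0.36. A sample left alone in its group is assumed to vary like the others. Groups of 2 limit every comparison.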
